A study of Caenorhabditis elegans with 39 samples.

Results

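The 26S proteasome is described here through 31 of its subunit genes in Caenorhabditis elegans, out of 44968 features listed in every count table. The members were chosen by sequence name, without use of their values: the alpha ring genes pas-1 to pas-7, the beta ring genes pbs-1 to pbs-7, the ATPase genes rpt-1 to rpt-6, and the non-ATPase genes rpn-1, rpn-2, rpn-3, rpn-5, rpn-6.1, rpn-7, rpn-8, rpn-9, rpn-10, rpn-11 and rpn-12. All 31 were present in every library, and each sequence name matched the intended symbol in the Ensembl annotation of the WBcel235 genome build. Of the members, 14 belong to the core particle and 17 to the regulatory particle, and all 31 passed the filters on low counts. The lowest count of any member in any library was 139.

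As background, the proteasome is the large protease that degrades proteins tagged with ubiquitin in the cytoplasm and nucleus. Its core particle is a barrel of stacked rings, in which the outer alpha rings gate the entrance and the inner beta rings carry the cutting sites. The regulatory particle caps the barrel: its ring of ATPases unfolds substrates and feeds them into the core, and its non-ATPase subunits bind ubiquitin chains, remove them and hold the cap together. In C. elegans, transcription of proteasome genes is raised by SKN-1A, a form of the transcription factor SKN-1 that is made in the endoplasmic reticulum membrane and processed after its release.

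The libraries came from whole first-stage (L1) larvae of the laboratory strain N2, in the F3 generation after an ancestral treatment. The ancestors of all groups were well-fed worms whose embryos were put in liquid culture as controls, as short-term dauers or as long-term dauers, where the dauer is an arrested larval stage; F1 and F2 were kept well fed. F3 larvae were collected after 18 h with food or 24 h without it, so feeding cannot be told apart from hours in culture or from the greater number of washes given to fed larvae. There were 4 fed libraries of control descent, 4 of short-term dauer descent and 3 of long-term dauer descent. The starved libraries numbered 12, 9 and 7 in the same order. Long-term dauer lasted 40 or 49 days in the batch 1 libraries, by their names. Fed libraries exist in batch 1 only, which holds all 11 of them and 13 starved libraries; batch 2 holds 15 starved libraries. The submitters call the replicates biological, but no culture of origin is named, and p-values measure the spread between these libraries.

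Library totals ran from 20950821 to 30313127 gene counts in batch 1 and from 8836723 to 13740490 in batch 2. Levels are given as CPM, counts scaled to a common library size, after TMM scaling, a scaling to the typical gene that was computed over all 39 libraries. Markers of growing larvae (col-17, sqt-2 and dpy-5) summed to 1210 to 2770 CPM in fed libraries and to 0.267 to 19.6 CPM in 26 of the starved libraries, and all 3 were called higher in fed control descendants. The library labelled starved LC4_49d, of long-term dauer descent, had 1910 CPM of these markers, inside the fed range. Its markers of fasting (acs-2, hacd-1 and lipl-3) summed to 52.4 CPM, also inside the fed range of 45.9 to 108 CPM. The starved library LC14 of short-term dauer descent also stood apart, with 12.6% of reads outside genes, a TMM factor of 1.96 and 32.7 CPM of adult yolk genes, against 1.6 to 4.82 CPM in the other libraries labelled starved except LC4_49d, which had 2.27. The sum of fasting markers was also low in 3 other starved libraries, batch 2 control 14, batch 2 short-term dauer 14 and control LC6, at 14.9, 17.2 and 18.2 CPM, whose growing-larva markers were low. In these 3, lipl-3 alone was at 7.5, 5.95 and 8.26 CPM, above the fed libraries, which had at most 0.585 CPM. In LC4_49d starved it was 0.567 CPM. Yolk genes are detected in all libraries at the low levels given above, with vit-3, vit-4 and vit-5 at 0 in some of them. Fits without LC4_49d starved, and without both libraries, are given beside the feeding responses, their differences and the starved comparisons.

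Proteasome transcripts were several times more abundant in fed than in starved larvae, and the genes moved together. In control descendants the 31 members summed to 6842, 6424, 4824 and 5761 CPM in the fed libraries LC10, LC11, LC12 and LC14. The starved batch 1 libraries LC10, LC11, LC12, LC14 and LC6 held 1705, 1565, 1535, 1618 and 1773 CPM. Every fed library was above every starved one, with no overlap, and the fed libraries had the wider spread (5963 ± 880 CPM, SD, n = 4, against 1639 ± 98.5 CPM, SD, n = 5). As a share of all gene counts, with no TMM scaling, the 31 genes took 0.393% to 0.552% in the fed libraries and 0.161% to 0.198% in the starved batch 1 libraries other than LC4_49d. Markers of growing larvae and of fasting moved with feeding as well, and their part in the proteasome difference was not tested. In these bulk samples, more RNA per cell and a larger share of proteasome-rich cells cannot be told apart.

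**Figure D1:**
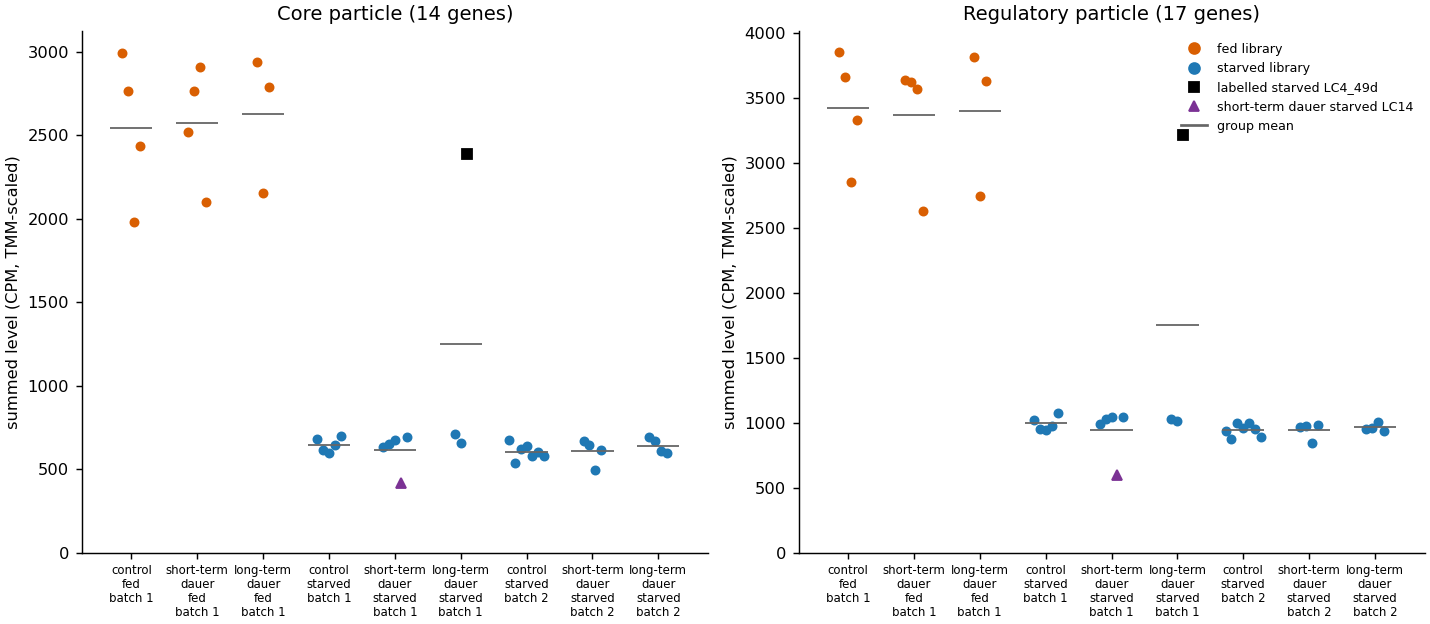
Summed level of the 14 core particle genes (left) and the 17 regulatory particle genes (right) in each of the 39 libraries, in TMM-scaled CPM on a linear axis from 0, by ancestry, feeding and batch; points are libraries and horizontal lines are group means. The fed core sums lie between 1977 and 2993 CPM, and the starved ones at 417 to 711 CPM except for the library labelled starved LC4_49d, at 2384 CPM.

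In edgeR's quasi-likelihood test with Benjamini-Hochberg adjustment over all genes, at an adjusted p under 0.05, 31 of 31 members rose in fed control descendants, where 53.7% of the 19406 genes tested were called and 28.7% were called higher. The median log2 fold change of the members was 1.86, with a range of 1.11 to 2.16, while that of all genes was -0.15. The members' edgeR adjusted p-values ran from 6.5e-06 to 1.0e-04. For all 31 members every fed library was above every starved one, which held for 28% of the genes tested. With library totals in place of TMM the median of all genes moved to -0.41 and that of the members to 1.59, with 31 called; this scaling moves all genes by a like amount.

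The alpha ring had the highest median response of the subcomplexes, 2.02 on the log2 scale, with 7 of 7 genes called higher. At the top was pas-4 (C36B1.4), an alpha ring subunit, with 190.5, 177, 121 and 156.5 CPM in the fed libraries of control descent and 39.9, 33.7, 31.6, 33.3 and 31.9 CPM in the starved ones. Its groups did not overlap, and its log2 change was 2.16 (SE 0.279; edgeR adjusted p = 6.7e-06). The smallest change was that of pas-3 (Y110A7A.14), with 308, 293, 209 and 248 CPM fed and 77.3, 72.9, 63.3, 75.1 and 100.1 CPM starved. The starved library LC6 was the high one for pas-3, and the log2 fold change was 1.69 (SE 0.255; edgeR adjusted p = 1.4e-05). The other 5 alpha genes lay between, from pas-6 at 1.81 to pas-5 at 2.09.

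In the beta ring 7 of 7 genes were called higher, with a median log2 fold change of 1.87. The gene pbs-7 (F39H11.5), a beta subunit without a cutting site of its own, had 168, 153, 116 and 133 CPM in fed and 34.5, 30.2, 28.4, 31.1 and 30.4 CPM in starved control descendants, a log2 change of 2.13 (SE 0.264; edgeR adjusted p = 6.5e-06). The smallest change, by a margin that does not show after rounding, was that of pbs-5 (K05C4.1), which carries the chymotrypsin-like cutting site. It had 306, 284.5, 215 and 257 CPM fed and 81.9, 69.6, 70.3, 73.8 and 85.9 CPM starved, again without overlap, and a log2 change of 1.72 (SE 0.238; edgeR adjusted p = 7.8e-06). The other subunits with cutting sites, pbs-1 (caspase-like) and pbs-2 (trypsin-like), had log2 fold changes of 1.77 and 1.94. In control descendants the subunit with the chymotrypsin-like site was thus at the bottom of the ring, and pbs-2 was near the upper end. In the fit without LC4_49d and LC14 starved, pbs-1 was lowest in the other ancestries. It was at 1.59 in short-term and 1.64 in long-term dauer descendants, where pbs-5 was at 1.62 and 1.77.

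In the ATPase ring, the motor of the cap, 6 of 6 genes were called higher, with a median of 1.77. The gene rpt-2 (F29G9.5) had 289, 267, 206 and 236 CPM in fed and 58.3, 52.6, 49.5, 54.7 and 56.4 CPM in starved control descendants, a log2 change of 2.12 (SE 0.274; edgeR adjusted p = 6.7e-06). Its partner in the same ring, rpt-1 (C52E4.4), had 250.5, 239, 186 and 222 CPM fed and 79, 69.5, 64.5, 68.5 and 72.2 CPM starved. Its log2 fold change was 1.59 (SE 0.224; edgeR adjusted p = 8.3e-06), the smallest of the ring. The groups of both genes were fully apart. The remaining 4 ATPases had log2 fold changes of 1.68 (rpt-6), 1.74 (rpt-3), 1.8 (rpt-5) and 1.87 (rpt-4).

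The non-ATPase subunits had a like median, 1.76, but the widest range, from 1.11 to 2.13, with 11 of 11 called higher. The lid subunit rpn-12 (ZK20.5) had 113, 105, 78.5 and 88.6 CPM in fed and 23.1, 19.7, 19.4, 22.3 and 19.8 CPM in starved control descendants, a log2 change of 2.13 (SE 0.270; edgeR adjusted p = 6.5e-06). At the other end was rpn-6.1 (F57B9.10), a lid subunit known in C. elegans for raising proteasome activity in worms that lack a germline, with 207, 192, 163 and 180 CPM fed and 78.6, 77.3, 76.5, 77.3 and 96.7 CPM starved. Its groups did not overlap either, but the log2 change of 1.11 (SE 0.206; edgeR adjusted p = 1.0e-04) was the smallest of all 31 members. The next smallest was rpn-2, the large scaffold of the cap, at 1.32 (SE 0.198). The other large scaffold, rpn-1, was at 1.61, the ubiquitin receptor rpn-10 at 1.58, the deubiquitinase rpn-11 at 1.76 and its inactive partner rpn-8 at 1.72. The further lid subunits rpn-3, rpn-5, rpn-7 and rpn-9 lay between 1.86 and 1.95.

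**Figure D2:**
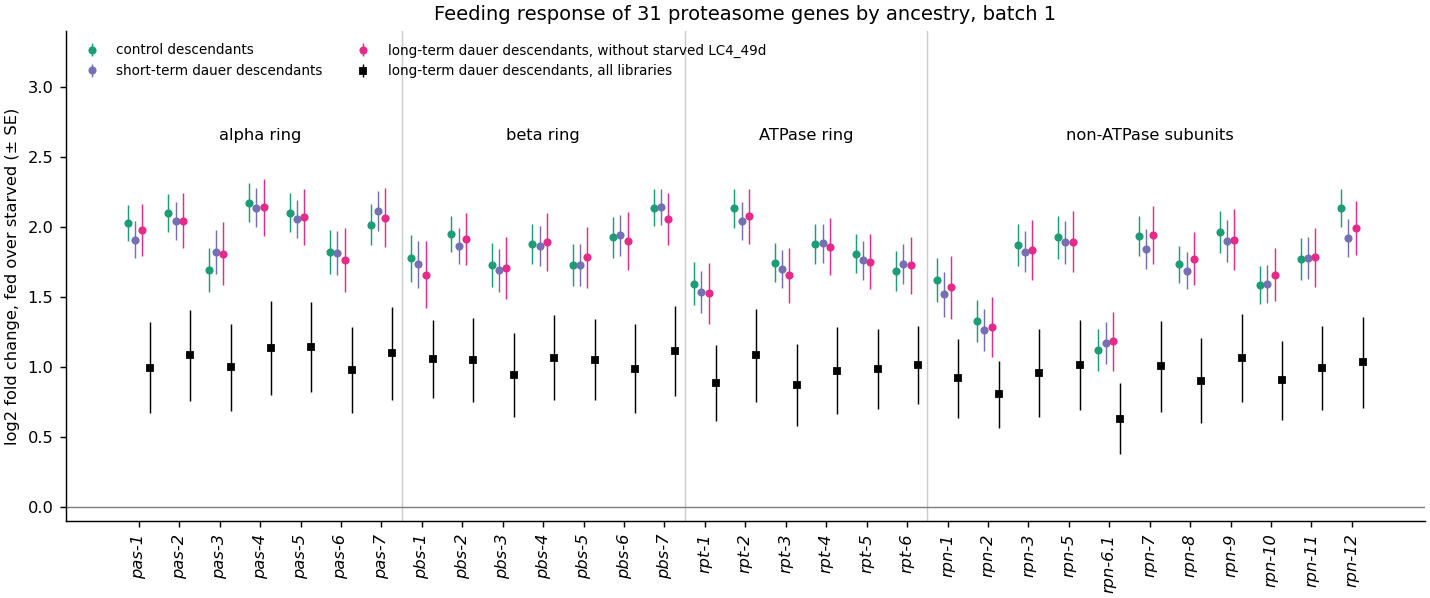
Log2 fold change of fed over starved batch 1 larvae for each of the 31 genes, ordered by subcomplex, with bars of 1 SE from edgeR. Green, violet and pink points are control, short-term dauer and long-term dauer descendants in the fit without the library labelled starved LC4_49d, and black squares are long-term dauer descendants in the fit with it; the coloured points lie between 1.12 and 2.17 and the black squares between 0.63 and 1.14.

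Levels were compared between genes only per kilobase of exon, with exon lengths from the WBcel235 annotation. Over the 11 fed libraries the means ran from 304 CPM per kilobase for pas-3 to 87.9 for rpn-2. Over the 12 starved batch 1 libraries without LC4_49d they ran from 82.6 for pas-3 to 24.8 for rpn-12. The order of the top 4 was the same in both states: pas-3, pbs-1, pbs-5 and pas-2. Non-ATPase genes filled the 9 lowest places in fed larvae. The gene rpn-6.1 stood 25th of 31 in fed larvae, at 110.5 CPM per kilobase, and 8th in starved larvae, at 46.4. In the other direction pas-4 went from the 8th place to the 15th and pbs-7 from the 13th to the 22nd. These orders are of means, and neighbours in them were not tested against each other.

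**Figure D3:**
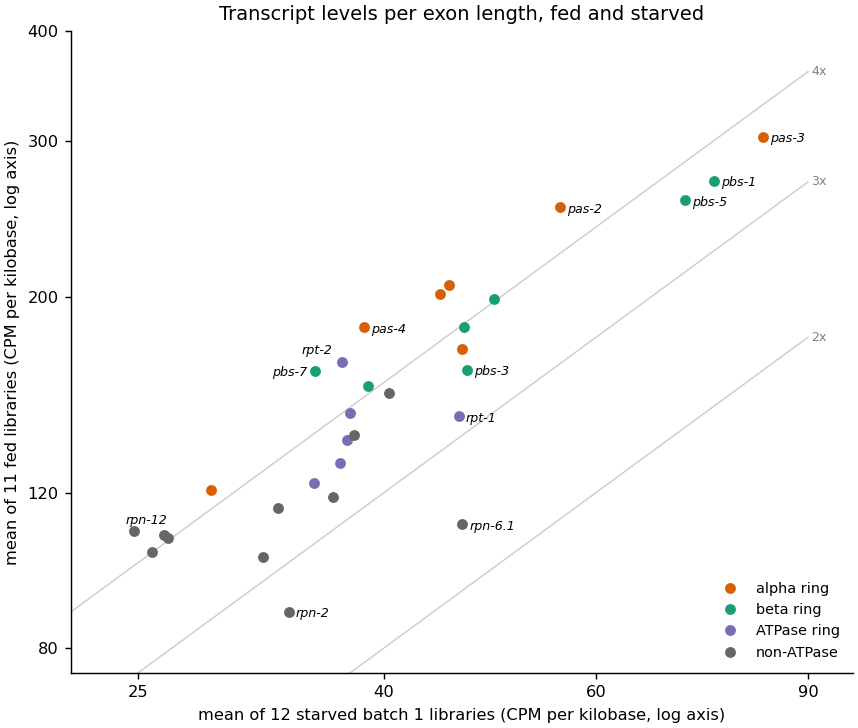
Mean level of each gene in 11 fed libraries against that in 12 starved batch 1 libraries without LC4_49d, in CPM per kilobase of exon on log axes, coloured by subcomplex; grey lines mark ratios of 2, 3 and 4. The gene rpn-6.1, at 110.5 fed and 46.4 starved, has the lowest ratio of fed to starved level and lies nearest to the line for 2, and pas-3 is highest on both axes, at 304 and 82.6.

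The core particle took a somewhat larger part of the whole in fed larvae. Summed CPM of the core over that of the regulatory particle was 0.759 in fed libraries and 0.657 in starved batch 1 libraries without LC4_49d (means). Levels per kilobase were also averaged over the genes of each particle. The ratio of the core average to the regulatory average was 1.64 ± 0.081 (SD, n = 11) in fed libraries. It was 1.45 ± 0.0433 (SD, n = 12) in starved batch 1 libraries without LC4_49d. The ranges of this ratio per kilobase overlapped, 1.5 to 1.75 in fed and 1.4 to 1.54 in starved libraries. Median log2 fold changes in control descendants were 1.93 for the 14 core genes and 1.76 for the 17 regulatory genes, with individual genes of both particles spread over much of the same range.

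Short-term dauer descendants showed a response of like size. Their fed libraries summed to 6155, 6386, 6477 and 4732 CPM in LC11, LC12, LC13 and LC14, and their starved batch 1 libraries to 1618, 1680, 1721, 1012 and 1735 CPM in LC11, LC12, LC13, LC14 and LC6. In both states LC14 was the low library, and the groups did not overlap. All 31 members were called higher in edgeR (28% of 19406 genes called higher and 58.3% in either direction), with a median log2 fold change of 1.81 against -0.28 for all genes. The largest was pbs-7, at 2.13 (SE 0.264), and the smallest rpn-6.1, at 1.16 (SE 0.207). The values of pbs-7 were 150.3, 151, 163 and 119 CPM fed and 30.5, 29.6, 30.3, 22.3 and 34.3 CPM starved, with no overlap. Those of rpn-6.1 were 199, 191, 185 and 149 CPM fed and 74.5, 80.2, 79.5, 41.5 and 82.7 CPM starved, also without overlap. Without LC4_49d starved, 31 members were again called higher in short-term dauer descendants (27.7% of genes called higher, 29.7% lower, 57.3% in either direction) and 31 in control descendants (51.9% of genes called in either direction). Without both LC14 starved and LC4_49d starved, 31 members of short-term dauer descendants were called, with a median of 1.73.

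In long-term dauer descendants the result depended on which libraries were kept. Their fed libraries LC3_40d, LC3_49d and LC4_49d summed to 6749, 4893 and 6416 CPM, and their starved batch 1 libraries of the same names to 1734, 1671 and 5598 CPM. The library labelled starved LC4_49d lay among the fed libraries, and all 31 members in it were inside the range of the 11 fed libraries and above all 27 other starved libraries. The share of all genes placed in this way was not counted, so the placement cannot be read as particular to the members. For pas-4, the fed values were 183, 135 and 177 CPM and the starved values 36.4, 36.1 and 151 CPM. With all libraries, 27 of 31 members were called higher in edgeR (5.81% of all genes called higher, 6.33% called lower, 12.1% in either direction), with a median log2 fold change of 1.00 against -0.09 for all genes. The members not called were rpt-3, rpn-3, rpn-8 and rpn-6.1, with edgeR adjusted p-values of 0.0504, 0.05 (just over the threshold before rounding), 0.052 and 0.0887. Without LC4_49d starved, 31 of 31 were called (24% of 20363 genes called higher, 38.9% in either direction), with a median of 1.84 and a range of 1.18 to 2.14. That fit rests on 2 starved long-term dauer libraries, LC3_40d and LC3_49d. Their names share LC3, and whether they had a common origin is not stated. When LC4_49d starved was kept and any 1 of LC3_40d fed, LC3_40d starved, LC3_49d fed, LC3_49d starved and LC4_49d fed was left out, 0 members were called. The count was 16 or 17 without any 1 of 10 libraries of other ancestries, which are part of the same fit: control fed LC11 and LC14, control starved LC10 and LC11, and short-term dauer LC11, LC12 and LC13, fed or starved. The calls over all genes moved too, from 0 to 7929 across the 24 fits that left out 1 library. Each fed long-term dauer library was above each starved one for 1 member with LC4_49d starved (8.96% of genes) and for all 31 without it (37% of genes).

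Across the 31 genes, and without LC4_49d starved, the largest gap between the control and short-term dauer responses was 0.215 on the log2 scale and that between control and long-term dauer responses 0.146. The order of the genes was much alike: rpn-6.1 and rpn-2 had the smallest response in each ancestry, pas-4 had the largest in control and long-term dauer descendants, and pbs-7 in short-term dauer descendants. The ancestries have no library in common in these contrasts, but all shared the same fit and scaling.

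The question whether ancestry altered the feeding response was put to the members through the difference of responses. For short-term dauer minus control, 0 of 31 members were called in edgeR, as were 0% of all genes, and 0 members had an unadjusted p under 0.05; DESeq2 and limma voom also called 0. The median difference was -0.05, and the 95% intervals of single genes lay within -1.0 and 0.885 on the log2 scale. Without LC4_49d starved the median was -0.04, with intervals within -0.606 and 0.587. Without both LC4_49d and LC14 it was -0.13, against 0.009 for all genes. In that fit 29 of 31 members were below 0, with 0 called, 0 with an unadjusted p under 0.05 and intervals within -0.643 and 0.477. The members share libraries and scaling, so their signs are not independent. The member with the largest difference was rpn-12, at -0.22 (SE 0.377, 95% interval -1.0 to 0.557; edgeR adjusted p = 1), and -0.28 without both libraries (95% interval -0.643 to 0.0925). Its fed values were 113, 105, 78.5 and 88.6 CPM in control and 96.7, 97.1, 101 and 68.1 CPM in short-term dauer descendants, which overlap. The starved values were 23.1, 19.7, 19.4, 22.3 and 19.8 CPM in control and 21.2, 21.2, 23.1, 16 and 24.5 CPM in short-term dauer descendants, which overlap as well. For long-term dauer minus control, 0 members were called (0% of genes), and DESeq2 and limma voom called 0 members. Unadjusted p-values were under 0.05 for 19 members, a count given without the share of all genes. The median difference was -0.87, against -0.05 for all genes. Without LC4_49d starved, 0 members had an unadjusted p under 0.05, the median was -0.03, and the 95% intervals lay within -0.699 and 0.662.

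Among starved larvae of both batches, with batch as a term, 0 of 31 members differed between ancestries in edgeR (0% of 15980 genes) in each of the 3 comparisons. The summed level in batch 2 was 1546 ± 79.6 CPM (SD, n = 7) for control descent, 1548 ± 140 CPM (SD, n = 4) for short-term and 1602 ± 48.5 CPM (SD, n = 4) for long-term dauer descent, with overlapping ranges. For short-term dauer minus control, 0 members had an unadjusted p under 0.05 and the median was -0.002; it was 0.03 without LC4_49d starved and 0.04 without both libraries, with 0 members called or under the unadjusted threshold in either. For long-term dauer minus control, 27 members had an unadjusted p under 0.05, with a median of 0.41, against 0.002 for all genes. Without LC4_49d starved this fell to 2 members, pas-2 at 0.18 and pbs-4 at 0.15, with a median of 0.08 and 0 called. For long-term minus short-term dauer the unadjusted count was 30 with and 0 without that library, and the median went from 0.41 to 0.05, and to 0.02 without both. With all libraries the median of all genes was -0.03. The share of all genes under the unadjusted threshold is not given here, so the unadjusted counts cannot be read as particular to the members. DESeq2 and limma voom called 0 members in these comparisons. In batch 2 alone the long-term dauer median was 0.07, with 0 called. In batch 1 the starved long-term dauer libraries were in sequencing lane 4 and the short-term ones, except LC6, in lane 5.

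Among fed larvae the summed levels were 5963 ± 880 CPM (SD, n = 4) for control descent, 5937 ± 815 CPM (SD, n = 4) for short-term and 6019 ± 989 CPM (SD, n = 3) for long-term dauer descent. In edgeR, 0 of 31 members were called in each of the 3 comparisons (0% of 16132 genes), 0 had an unadjusted p under 0.05, and DESeq2 and limma voom called 0 members. The median differences were 0.0033 for long-term dauer minus control, -0.04 for short-term dauer minus control and 0.05 for long-term minus short-term dauer. The 95% intervals of single genes lay within -0.417 and 0.438 over the 3 comparisons. All fed long-term dauer libraries were in sequencing lane 4 and all fed short-term dauer libraries in lane 5, so lane and ancestry cannot be told apart between these groups.

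**Figure D4:**
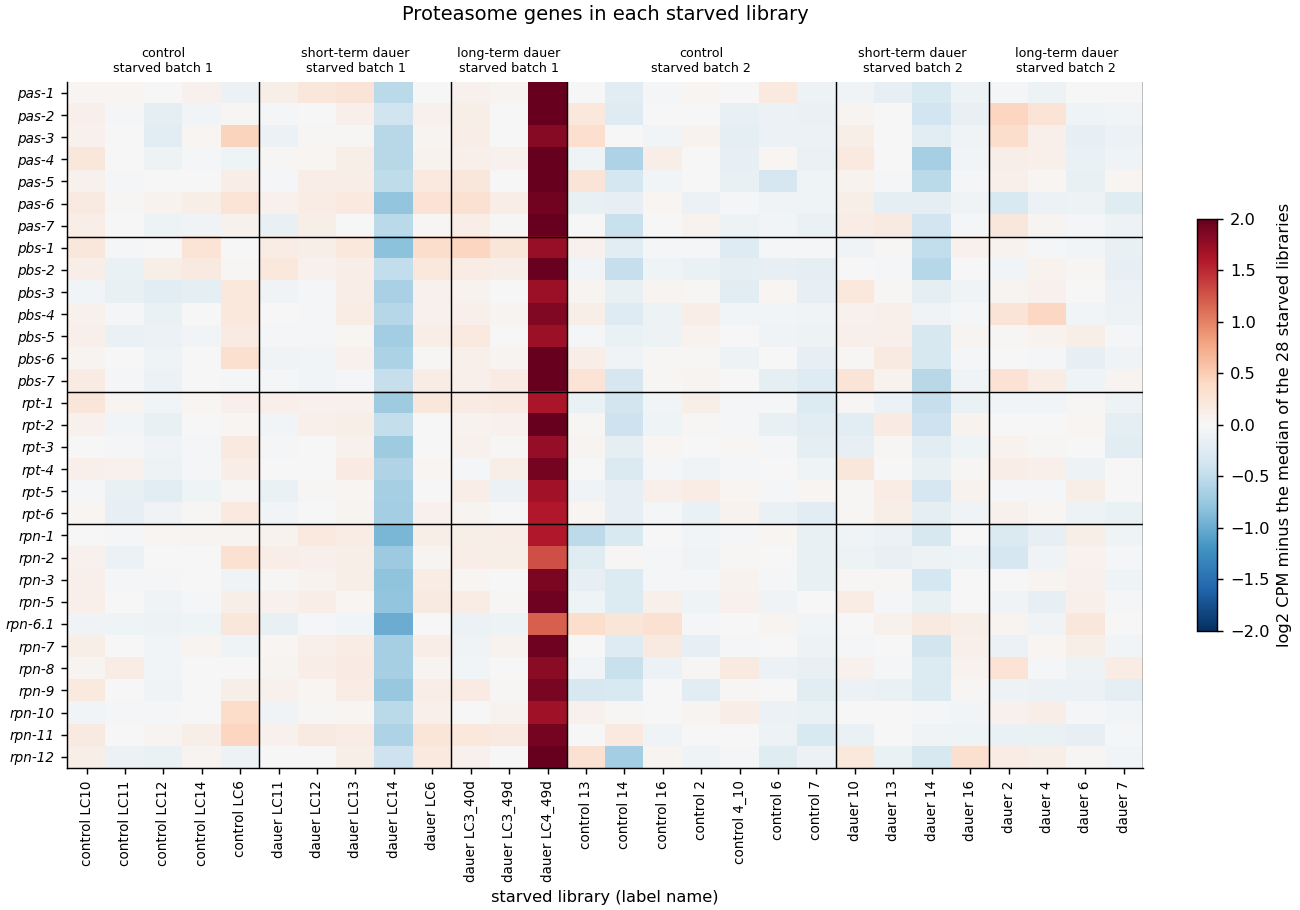
Level of each of the 31 genes (rows, by subcomplex) in each of the 28 starved libraries (columns, by ancestry and batch), as log2 CPM minus the gene's median over the 28 libraries, with colours held to the range from -2 to 2. The column of LC4_49d is high in every row, with a sum of 5598 CPM, and that of LC14 of short-term dauer descent is low, with a sum of 1012 CPM.

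Between the starved batches the members differed far less than between fed and starved larvae. The batches also differ in depth and sequencing lane, and these cannot be told apart from the batch. Summed levels were 1561 ± 89.8 CPM (SD, n = 15) in batch 2 and 1614 ± 203 CPM (SD, n = 12) in batch 1 without LC4_49d. In edgeR, with ancestry as a term and all 28 libraries, 8 of 31 members were called lower in batch 2 (13.8% of 15980 genes called lower, 25.3% in either direction). These were pas-6, pbs-1, pbs-2, rpt-1, rpn-1, rpn-2, rpn-9 and rpn-11, with log2 differences from -0.43 (pbs-2) to -0.25 (rpn-2); the median of all members was -0.26 and that of all genes -0.03. Without LC4_49d starved the median was -0.06, and 6 members were called lower (13.4% of genes), with differences of -0.23 for pas-6, -0.22 for pbs-1, -0.23 for pbs-2, -0.20 for rpt-1, -0.18 for rpn-9 and -0.21 for rpn-11. Lowest, median and highest values of pas-6 were 24.5, 47.02 and 52.5 CPM over the 12 batch 1 libraries without LC4_49d and 34.3, 39.2 and 46.2 CPM over the 15 batch 2 libraries. For rpn-11 they were 27.97, 48.14 and 58.1 CPM in batch 1 and 35.0, 41.0 and 49.3 CPM in batch 2. The batches overlap for both genes, and the low end of batch 1 is LC14. The core gene pas-6 and the deubiquitinase gene rpn-11 had the lowest edgeR adjusted p-values of these, 0.00394 and 0.00381.

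The member rpn-6.1 differed in the other direction. In starved larvae rpn-6.1 had a lowest level of 41.5, a median of 77.3 and a highest of 96.7 CPM over the 12 batch 1 libraries without LC4_49d, and 78.7, 85.7 and 104.5 CPM over the 15 batch 2 libraries. The ranges overlap. Without LC4_49d starved it was higher in batch 2 by 0.19 on the log2 scale (SE 0.0581; edgeR adjusted p = 0.0178; 13.4% of genes called higher), and with all libraries the difference was 0.07 (edgeR adjusted p = 0.64), the only positive one of the 31. Without LC4_49d starved the differences of pbs-3 and rpt-5 were also above 0 but not called. Without both LC4_49d and LC14, 10 members were called lower and rpn-6.1 higher (28.1% of genes called in either direction). The count of 8 fell to 5 when the batch 2 long-term dauer library 2, 4, 6 or 7 was left out, and to 1 when no filter on low counts was used.

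The LC14 library of short-term dauer descent shows how far a level depends on the scaling. By TMM its 31 genes summed to 1012 CPM, and 26 members were below all 26 other starved libraries. By library totals the sum was 1980 CPM, 14 members were above all other starved libraries and 17 were inside their range. The shares of all genes placed in these ways were not counted. What part the reads outside genes and the yolk transcripts of LC14 had in this dependence on scaling was not tested. For all 31 members, every fed library was above every starved batch 1 library other than LC4_49d under both scalings. By TMM this held for 22.9% of genes, and every fed library was below every starved one for a further 8.32%.

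Beyond the subunits, 45 related genes of the ubiquitin-proteasome pathway were listed. One of them, ufd-1, had at most 0.186 CPM in any library and was not tested for differences. Whether the gene is silent or was missed by the counting cannot be told from these counts. Of the 44 tested in control descendants, 29 were called higher, 1 was called lower and 14 were not called (28.7% of all genes called higher and 25% lower), with a median log2 fold change of 0.62, well below the 1.86 of the subunits. In short-term dauer descendants 32 were higher and 2 lower (28% and 30.2% of all genes), with a median of 0.63. In long-term dauer descendants 10 were higher and 0 lower with LC4_49d starved (5.81% and 6.33% of all genes), and 29 higher and 0 lower without it (24% and 14.9% of all genes).

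By role, in control descendants, 5 of the 5 tested CDC-48 genes, 5 of 7 other proteasome parts and regulators, 4 of 5 genes of SKN-1A activation, 3 of 4 genes of ubiquitin and its activation, 6 of 10 conjugating enzyme genes and 6 of 13 ligase genes were called higher. The group medians were 1.08, 1.13, 0.66, 0.49, 0.79 and 0.34 on the log2 scale, with the ligases lowest. Over all genes 28.7% were called higher and the median was -0.15.

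The largest changes on this list were in CDC-48, the ATPase that pulls ubiquitinated proteins out of complexes and hands them to the proteasome. In control descendants cdc-48.2 had 444, 389, 303 and 357 CPM fed and 66.3, 60.5, 64.7, 65.1 and 65.7 CPM starved, a log2 change of 2.46 (SE 0.312; edgeR adjusted p = 6.5e-06). Its paralog cdc-48.1 had 571, 563, 404 and 530 CPM fed and 147, 133, 142.5, 140.2 and 123 CPM starved, a log2 change of 1.84 (SE 0.259). The groups did not overlap for either gene; the 2 sequences are very similar, so reads could be shared between them and the split is uncertain. The deubiquitinase gene ubh-4, whose product docks on the cap, followed at 1.82 (SE 0.260), with 83.8 to 113 CPM fed and 24.5 to 31.8 CPM starved.

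Other parts and regulators outside the 31 were named after their values were seen. The cap-bound deubiquitinase gene usp-14 was at 1.69, the ubiquitin receptor gene rpn-13 at 1.28 and dss-1, a small lid subunit, at 1.13, all called higher. The paralog rpn-6.2, at 1.18 to 5.63 CPM over all 39 libraries, had a log2 difference of -0.48 in control descendants (edgeR adjusted p = 0.0799). It was called lower in short-term dauer descendants, at -0.86 (edgeR adjusted p = 0.00348). Its batch 1 values there were 2.49, 1.96, 2.33 and 2.95 CPM fed and 4.11, 3.31, 3.1, 5.63 and 2.96 CPM starved. The highest, 5.63 CPM, was that of starved LC14. The only gene called lower in control descendants was ubc-1, a ubiquitin-conjugating enzyme gene, with 60.4, 57.4, 58.8 and 59.1 CPM fed and 85.2, 83.5, 82.6, 79.2 and 145 CPM starved. Its log2 fold change was -0.77 (SE 0.187; edgeR adjusted p = 0.00132), and the high value was that of LC6.

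The genes of SKN-1A and its activation changed less than the subunits. The transcription factor gene skn-1 itself, counted over all its forms, had 250.5, 276, 283 and 260 CPM in fed and 189, 195, 192, 192 and 243 CPM in starved control descendants. The fed libraries were all above the starved ones, but its log2 difference of 0.33 (SE 0.179) was not called (edgeR adjusted p = 0.126), and it was not called in the other ancestries either. The factors that release and process SKN-1A were called higher in control descendants: png-1, the peptide N-glycanase, at 0.75 (SE 0.127), sel-11, a membrane ubiquitin ligase, at 0.72 (SE 0.144), ddi-1, the protease that cleaves SKN-1A, at 0.67 (SE 0.136), and sel-1, a partner of SEL-11, at 0.37 (SE 0.127). Their edgeR adjusted p-values were 4.4e-05, 2.2e-04, 2.7e-04 and 0.017. Of the 5 SKN-1A genes, 4 were also called in short-term dauer descendants, and 3 in long-term dauer descendants without LC4_49d starved.

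**Figure D5:**
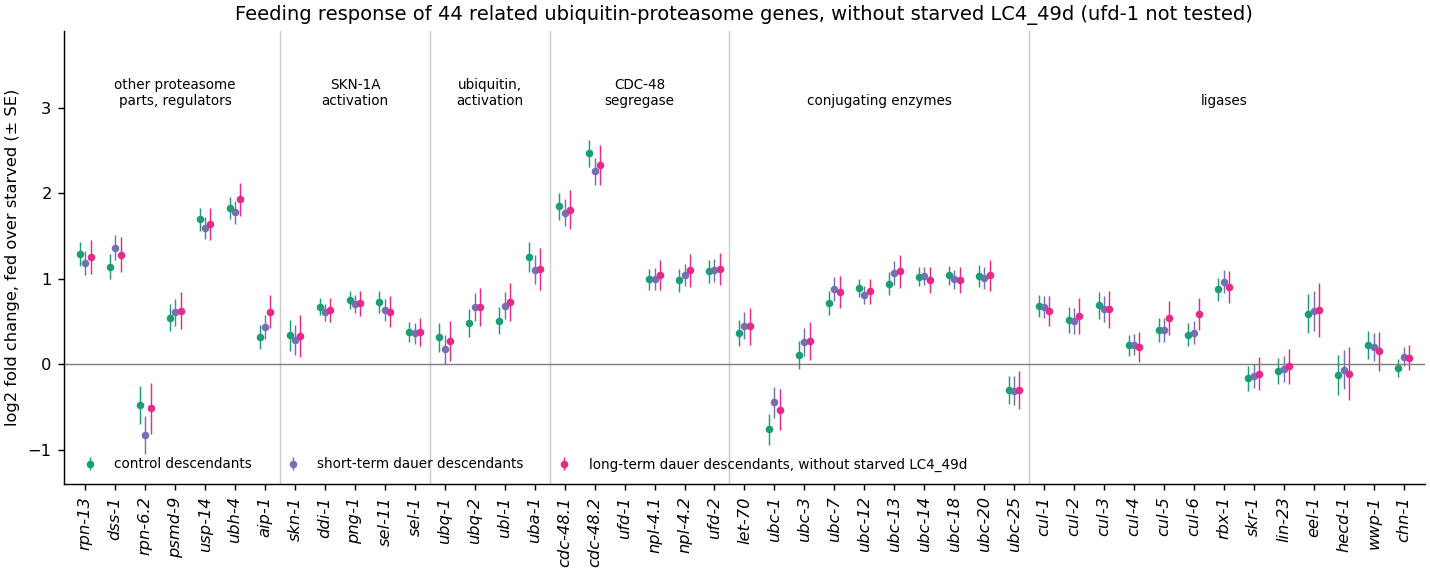
Log2 fold change of fed over starved batch 1 larvae, with bars of 1 SE, for 44 related ubiquitin-proteasome genes in control (green), short-term dauer (violet) and long-term dauer (pink) descendants, fitted without the library labelled starved LC4_49d. The gene cdc-48.2 is highest in each ancestry, at 2.47, 2.26 and 2.33, followed by cdc-48.1 and ubh-4, while the ligase genes lie below 1.

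The members lie on chromosomes I (10 genes), II (7), III (6), IV (3) and V (5) of the WBcel235 build. For 6 of 31 (19.4%) a protein-coding gene on the same strand ends within 500 bases upstream, against 18.1% of 19973 protein-coding genes, so close upstream neighbours were about as common as in the genome. The library kit does not keep the strand, and the exons of 11 members overlap those of another gene in this annotation. The overlap is largest for rpn-7 (20.7% of exon length, with nemt-1) and rpn-9 (10.6%, with a noncoding RNA), and reads there cannot be assigned to 1 gene by strand. For pbs-7 7.97% of the exon length overlaps a gene on the same strand. The gene with the smallest response, rpn-6.1, has no such overlap, nor has rpn-12, the non-ATPase gene with the largest.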

How the data were processed

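Messenger RNA was counted in 39 libraries of whole larvae, and the deposited values are the authors' raw counts per gene, with no normalization. Alignment with Bowtie 1.1.2, counting with HTSeq and use of edgeR are listed in the submitters' processing notes; the genome build and the counting settings are not given in the sources used here. Of 44968 features, 528 matched no gene of the annotation used for names. Summary entries that name no gene stayed out of library sizes; reads outside genes were 1.75% to 12.6% and unaligned reads 14.4% to 19% of each library.

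Tests were run in R 4.3.3 with edgeR 4.0.16 (TMM scaling, expression filter by group, robust quasi-likelihood fit, Benjamini-Hochberg adjustment over all genes tested, adjusted p under 0.05). Feeding responses and their differences used the 24 batch 1 libraries, starved comparisons the 28 starved libraries with batch as a term, and fed comparisons the 11 fed libraries. A standard error is the log2 fold change divided by the square root of its F value. DESeq2 1.42.0, limma 3.58.1 (voom), other scalings, no filter on low counts, a replicate block and leaving out each library were alternatives; combinations that leave out LC4_49d or LC14 together with another change were chosen after seeing the data. Code was tested on simulated data with the spread of the fits of all libraries. Of 200 genes changed by 1 on the log2 scale, few were recovered in the differences of feeding responses. Recovery was 9% for short-term and 1.5% for long-term dauer minus control. In the feeding responses it was 41.5% (control), 47% (short-term dauer) and 19.5% (long-term dauer). Between ancestries at the same feeding it was 63% to 77%, and between batches 85%. No replicate pair held identical counts. Total counts per library were lower in batch 2; replicate pairs differed by more than counting error, with a chi-square per degree of freedom of at least 4.03.

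The members and gene lists were chosen with earlier results of these data known. Genes given in full are those with the largest and smallest control response in each subcomplex, the largest difference between short-term dauer and control responses, the 3 largest rises and up to 3 falls on the related list, and the SKN-1A genes. A planned count of SKN-1 binding motifs in promoters was not run, as promoter sequences were not used here.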

Additional observations from a re-analysis of the deposited data

Results flagged for a closer look

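A library was singled out where its value in a group of 4 to 10 libraries lay far from all others by Dixon's ratio at the 95% level. Chance alone singles out about 1 in 20, or 13.6 of the 272 sets of values examined, and 85 were singled out; members of 1 library are not independent.

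The library labelled starved LC4_49d of long-term dauer descent accounts for 34 of these, all high against the other starved libraries of its ancestry, and 33 of them also stood out by library totals. Its alpha ring levels were 113 CPM for pas-1, 197 for pas-2, 259 for pas-3, 151 for pas-4, 157 for pas-5, 162 for pas-6 and 186 for pas-7. Its beta ring levels were 188 CPM for pbs-1, 185 for pbs-2, 135 for pbs-3, 135 for pbs-4, 250.4 for pbs-5, 135.5 for pbs-6 and 132 for pbs-7. Its ATPase levels were 207 CPM for rpt-1, 237 for rpt-2, 163 for rpt-3, 205.3 for rpt-4, 189.7 for rpt-5 and 161 for rpt-6. Its non-ATPase levels were 301 CPM for rpn-1, 252 for rpn-2, 279 for rpn-3, 174 for rpn-5, 187 for rpn-6.1, 189.5 for rpn-7, 142 for rpn-8, 127.5 for rpn-9, 151 for rpn-10, 161 for rpn-11 and 87.4 for rpn-12. The sums were 5598 CPM for all 31 genes, 2384 for the core and 3214 for the regulatory particle.

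The starved LC14 library of short-term dauer descent accounts for 28, all low in batch 1, and 3 of them also stood out by library totals. In the core these were pas-2 at 36.1 CPM, pas-3 at 49.8, pas-4 at 23.1, pas-6 at 24.5, pbs-1 at 31.9, pbs-2 at 33.6, pbs-3 at 26.3, pbs-4 at 25.2, pbs-5 at 46.9 and pbs-6 at 22.1. In the ATPase ring they were rpt-1 at 41.1 CPM, rpt-3 at 29.6, rpt-4 at 36.04, rpt-5 at 37.4 and rpt-6 at 32.8. Among non-ATPase genes they were rpn-1 at 52.4 CPM, rpn-2 at 62.1, rpn-3 at 43.5, rpn-5 at 25.97, rpn-6.1 at 41.5, rpn-7 at 30.9, rpn-8 at 25.6, rpn-9 at 20.1, rpn-10 at 32.1 and rpn-11 at 27.97. The sums were 1012 CPM for all 31 genes, 417 for the core and 594 for the regulatory particle.

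The fed LC14 library of the same descent was low in 10 values, 2 of them also by library totals: rpt-1 at 163 CPM, rpt-4 at 168, rpt-5 at 163, rpn-3 at 223.5, rpn-5 at 141, rpn-10 at 127, rpn-11 at 136, rpn-12 at 68.1, the sum of 31 at 4732 and the regulatory sum at 2631. In batch 2 the starved short-term dauer library 14 was low in 6 values: pas-5 at 25.9 CPM, pbs-2 at 31.8, pbs-5 at 61.2, rpn-3 at 59.8, the sum of 31 at 1339 and the regulatory sum at 846. The starved control library 14 of batch 2 was low for pas-4 at 22.2 CPM, pas-7 at 32.3, pbs-2 at 34.3 and rpt-4 at 44.5. In batch 1 the starved control library LC6 was high for rpn-6.1 at 96.7 CPM and rpn-10 at 60.1, and the starved control library LC10 was high for pas-4 at 39.9 CPM.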

How the results depend on the processing

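In control and short-term dauer descendants 31 members were called higher under every alternative run, leaving out each library included (31 to 31). The 0 members called in the starved, fed and difference comparisons stayed at 0 (0 to 0 when each library was left out). Counts that moved were those of long-term dauer descendants and of the batches. The 27 members of long-term dauer descendants became 0 when only the groups compared were fitted, where 0 of 15923 genes were called. The members called were 0 to 31 when each library was left out, with 0 to 7929 of all genes called. They were 31 without starved LC4_49d, 0 without each of the other 5 long-term dauer libraries, and 16 to 30 without each library of the other ancestries. They were 31 by DESeq2 and limma voom. The 8 members lower in batch 2 became 5 by library totals, 5 called (4 lower and 1 higher) by totals without starved LC4_49d and 5 (4 lower and 1 higher) by totals without both it and LC14, 1 with no filter on low counts, and 5 to 10 when each library was left out. No called member's direction reversed under these alternatives. The causes were not tested.

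Labels share replicate numbers between groups. With the number as a replicate block, 31 members were called in each of the 3 ancestries, and 0 in the differences, the starved comparisons and fed short-term dauer minus control; for the batches and the fed long-term dauer comparisons the block could not be fitted. Deviations of fed and starved libraries with the same number and ancestry correlated at over 0.1 in 9 of 11 pairs (-0.144 to 0.46), and those of 2 ancestries with the same number and feeding in 12 of 16 (-0.316 to 0.549). Most pairs were thus over 0.1, but libraries with different numbers were not compared, so these values have no reference level. Pairing was accepted only where every pair was over 0.1, so the numbers were not taken as pairs. The long-term dauer groups of batch 1 hold 3 libraries each, and LC3_40d and LC3_49d were treated as separate replicates although their names share LC3. Depth was lower in batch 2, at 8836723 to 13740490 counts, and its part in the results was not tested.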
